A study of Homo sapiens with 16 samples.

Results

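UWB1.289 and OVCAR3 are serous ovarian carcinoma cell lines, and a set of genes was read in UWB1.289 and hardly at all in OVCAR3. The members were chosen by their summed raw counts: at most 3 counts over the 8 OVCAR3 libraries and at least 400 over the 8 UWB1.289 libraries. Of 59428 rows of the count table, 50 passed both limits, 3 were left out by name (CCND2, MT1L and MT1E), and 47 genes remained. The difference between the lines is therefore the measure that selected the genes, and it is given as a description without a test. The response of the genes to olaparib within UWB1.289 was not a criterion of the choice and was tested. The limit of 400 counts summed both arms, however, so a gene near it could enter through its higher arm.

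The study compared olaparib, an inhibitor of PARP enzymes, which act at broken DNA strands, with its solvent DMSO in both lines. OVCAR3 has an intact BRCA1 gene and received 7.5 µM olaparib, while UWB1.289 carries a deleterious BRCA1 mutation and received 3.5 µM. Treatment lasted 96 h, the experiment was repeated 4 times, and each of the 4 groups held 4 libraries, all sequenced from the 3' ends of poly(A) RNA. The lines were grown in different media, and each genotype was represented by a single line, so line, BRCA1 status, medium and dose cannot be told apart.

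Cell lines derived from the same kind of tumor keep part of the expression program of the tissue and lose or gain other genes. A gene can be unread in a line because its promoter is methylated or packed in repressive chromatin, because its activating transcription factors are missing, or because the locus has been lost. Counts of RNA do not separate these states, which were not tested here. Genes with CpG-rich promoters, the usual kind at housekeeping and developmental genes, are the ones in which dense promoter methylation accompanies silencing in carcinomas.

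Library totals ranged from 5599571 to 7730228 counts. The label of serous carcinoma was checked against 18 markers, of which 16 had at least 400 counts in UWB1.289 and 17 in OVCAR3, and none had 3 or fewer in either line. The lowest were WT1 with 4 counts and ESR1 with 6, both in UWB1.289. Summed fibroblast markers took 26.1 to 59.97 CPM (counts scaled to a common library total) in the UWB1.289 libraries and 22.4 to 40.5 CPM in the OVCAR3 libraries. Summed leukocyte markers took 8.54 to 22.2 CPM and 2.81 to 5.18 CPM, and summed endothelial markers 5.77 to 11.1 CPM and 0.577 to 3.22 CPM. The part of these markers in the difference between the lines was not tested. More than 3 counts were found for 5 of 9 fibroblast, 5 of 12 leukocyte and 5 of 7 endothelial markers in UWB1.289, and for 4, 7 and 3 of them in OVCAR3. The highest in UWB1.289 were COL1A2 with 1851 counts, PTPRC with 357, CD14 with 269, COL1A1 with 209, PECAM1 with 202 and CDH5 with 166. In OVCAR3, COL1A1 had 1608. At 3 counts or fewer in each line were CD3E, CD3D, MS4A1, CSF1R, NKG7, COL3A1, DCN, LUM, TEK and EMCN. In bulk RNA, fewer cells that express a gene and less RNA per cell cannot be told apart.

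The promoters of 3 genes are shown, 2 rich in CpG and 1 poor. They are 300 bases long, from 250 bases before to 50 bases after a transcription start, and were taken from RefSeq on GRCh38.p14, 5′ to 3′ on the strand of the gene, with every CpG dinucleotide in capitals. NETO1 (chr18:72867938-72868237, minus strand, 28 CpG) and NETO1-DT (chr18:72868138-72868437, plus strand, 34 CpG) are shown because both are members and are transcribed away from each other, and their windows share 100 bases. IL1RL1 (chr2:102311313-102311612, plus strand, 1 CpG) is shown because it had the lowest CpG content and was one of the 2 genes called for olaparib. Each is 1 of several starts in the table: NETO1 has 2 further promoters, with 26 and 1 CpG, NETO1-DT has a further one with 36 and IL1RL1 a further one with 1.
NETO1: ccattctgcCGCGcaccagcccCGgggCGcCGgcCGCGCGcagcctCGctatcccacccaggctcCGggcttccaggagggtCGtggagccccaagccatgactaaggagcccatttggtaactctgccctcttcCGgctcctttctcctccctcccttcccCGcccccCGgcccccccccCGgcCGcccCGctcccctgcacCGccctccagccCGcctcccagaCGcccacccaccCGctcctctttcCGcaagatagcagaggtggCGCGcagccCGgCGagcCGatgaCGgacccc
NETO1-DT: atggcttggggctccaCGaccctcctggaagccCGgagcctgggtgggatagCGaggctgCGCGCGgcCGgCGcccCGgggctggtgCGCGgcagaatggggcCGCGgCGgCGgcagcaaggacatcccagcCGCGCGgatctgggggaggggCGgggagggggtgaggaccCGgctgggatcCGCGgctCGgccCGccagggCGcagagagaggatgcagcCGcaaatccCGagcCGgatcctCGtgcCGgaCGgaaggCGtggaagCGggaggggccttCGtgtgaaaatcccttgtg
IL1RL1: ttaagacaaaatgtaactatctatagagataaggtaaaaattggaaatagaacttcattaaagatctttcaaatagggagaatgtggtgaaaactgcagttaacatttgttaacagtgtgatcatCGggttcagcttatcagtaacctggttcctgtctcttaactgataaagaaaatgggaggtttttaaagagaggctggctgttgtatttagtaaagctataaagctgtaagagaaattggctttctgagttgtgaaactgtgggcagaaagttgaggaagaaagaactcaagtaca

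In OVCAR3, 26 of the 47 genes were at 0 in all 8 libraries, 8 had a sum of 1, 7 a sum of 2 and 6 a sum of 3. All members together took 40 counts in OVCAR3, 13 in the DMSO libraries and 27 in the olaparib libraries, and the largest count of a member in any library was 3, for TRIM58 in olaparib replicate 4. In UWB1.289 the sums ran from 400 to 11587 with a median of 823. There, 19 genes had at least 1000 counts and 8 had fewer than 500, and the smallest count in any library was 27. For the 26 genes without a count in OVCAR3, the level relative to the library totals was, in UWB1.289, at least 136-fold (DPP10-AS1) to at least 3520-fold (CELF2) higher, taking 3 counts over the 8 OVCAR3 libraries as the floor. These limits, and the intervals of ratios below, cover counting error only. The opposite pattern, at most 3 counts in UWB1.289 and at least 400 in OVCAR3, was met by 55 rows.

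**Figure D1:**
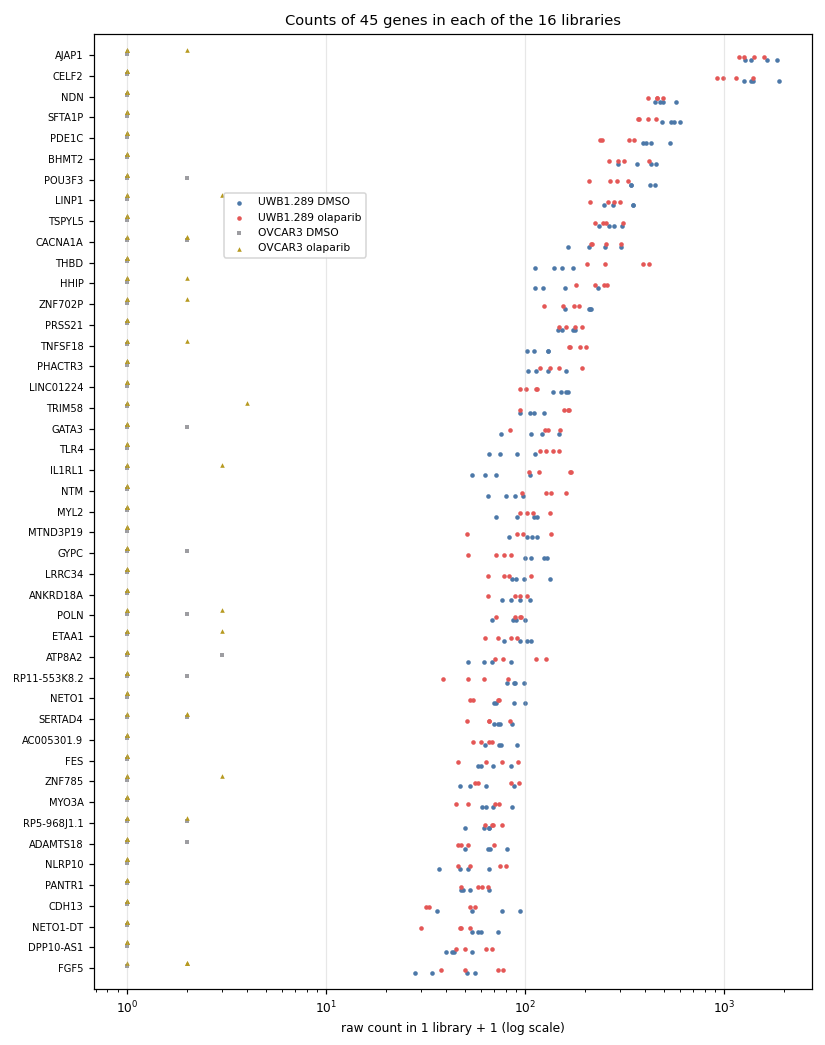
Raw counts plus 1 of 45 of the 47 genes (vertical axis, ordered by UWB1.289 sum) on a log horizontal axis, with 1 point per library for the 4 groups. All OVCAR3 points lie at 3 counts or fewer, and all UWB1.289 points at 27 counts or more, as the choice of the genes requires of their sums.

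Near the limits the choice was a matter of a few counts. FGF5 and DPP10-AS1 entered with exactly 400 counts in UWB1.289, and NETO1-DT with 415. Just below that limit stood APBB1IP with 395 counts, PDE10A with 390 and TWIST2 with 375. On the other side, RP11-108M9.4 and LINC02783 missed the OVCAR3 limit with 4 counts, and SUN3 missed it with 5 counts although it had 1289 in UWB1.289.

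The members took 0.141% ± 0.0066 of all counts in the UWB1.289 DMSO libraries (mean ± SD, n = 4) and 0.142% ± 0.0074 in the olaparib libraries (n = 4). Without AJAP1, the gene with the largest sum, the shares were 0.118% and 0.120%. The summed share of the set was thus almost equal in the 2 arms, and its difference was smaller than the SD of either arm.

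Genes for transcription factors, RNA-binding proteins and other nuclear regulators made up 7 of the 47. CELF2, which binds RNA and regulates splicing and mRNA stability, had 1262, 1367, 1398 and 1894 counts in the 4 DMSO libraries of UWB1.289 and 927, 986, 1144 and 1404 in the 4 olaparib libraries, with none in OVCAR3. POU3F3, a POU-domain transcription factor of the developing brain and kidney, had 423, 340, 342 and 452 counts with DMSO and 268, 210, 327 and 289 with olaparib, against 1 count in all of OVCAR3. GATA3, a zinc finger factor of T cells and of breast and urothelial epithelium, had 148, 106, 75 and 121 counts with DMSO and 150, 130, 83 and 125 with olaparib. The counts of GATA3 overlapped between the arms, those of CELF2 overlapped only through olaparib replicate 4, and those of POU3F3 did not overlap.

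NDN, an imprinted gene of the Prader-Willi region that is read from the paternal copy, had 449 to 576 counts with DMSO and 415 to 494 with olaparib, and no count in OVCAR3. It varied little, with 480 ± 3.15 normalized counts with DMSO and 476 ± 7.17 with olaparib (mean ± SD, n = 4 each; counts scaled to a common library size). TSPYL5, a member of the TSPY-like nucleosome assembly family, had 234 to 308 and 225 to 310 counts in the arms and was likewise absent from the OVCAR3 libraries. ZNF785, a C2H2 zinc finger gene, and SERTAD4 had sums of 536 and 563. Their counts per library lay between 46 and 92, and the arms overlapped for each.

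Adhesion, matrix and membrane skeleton genes were 5. AJAP1, a transmembrane protein of adherens junctions, had the largest sum of the set, with 1359, 1276, 1653 and 1855 counts with DMSO and 1189, 1261, 1411 and 1583 with olaparib, against a lone count in OVCAR3 olaparib replicate 1. Its ratio between the lines was 11785, with a 95% interval from 2115 to 465521. CDH13, a cadherin held by a lipid anchor and often methylated in carcinomas, had 53, 35, 94 and 76 counts with DMSO and 32, 31, 52 and 55 with olaparib. NTM, a neuronal adhesion protein of the immunoglobulin family, ADAMTS18, a secreted metalloprotease, and GYPC, a glycoprotein that ties the red cell membrane to its skeleton, had sums of 844, 471 and 741.

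Receptors, ligands and secreted regulators described here were 7. THBD, the endothelial thrombomodulin that turns thrombin toward activation of protein C, had a sum of 1839. HHIP, which binds hedgehog ligands and dampens the pathway, had 1536, TNFSF18, the ligand of the receptor GITR on T cells, 1191, and TLR4, the receptor of bacterial lipopolysaccharide, 870. IL1RL1, the receptor of the cytokine IL33, had 849, NLRP10, a NOD-like receptor gene, 448, and FGF5, a fibroblast growth factor, 400.

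Partner genes of these were read alongside, chosen after the members were known. IL1RAP, the partner chain of IL1RL1, had 782 counts over the 8 libraries of UWB1.289 and 675 in OVCAR3, whereas IL33 itself had 0 and 6. LY96 and CD14, the accessory proteins of TLR4, had 24 and 269 counts in UWB1.289 and 11 and 38 in OVCAR3, and MYD88 had 707 and 403. For hedgehog signaling, SHH, IHH and DHH had 7, 1 and 1 counts in UWB1.289, while the receptor gene PTCH1 had 195 there and 180 in OVCAR3. TNFRSF18, which encodes GITR, had 66 and 35 counts. Of these partners, IL1RAP and MYD88 had at least 400 counts in each line.

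Neuronal channel, synapse and membrane genes described here were 4: CACNA1A, the pore of P/Q-type calcium channels, with a sum of 1920; PHACTR3, a regulator of protein phosphatase and actin, with 1098; ATP8A2, a phospholipid flippase, with 649; and NETO1, an auxiliary subunit of glutamate receptors, with 577. Enzyme and signaling genes were PDE1C, a calmodulin-dependent phosphodiesterase (2919), BHMT2, a methyltransferase that makes methionine (2833), PRSS21, a serine protease of the testis (1326), TRIM58, a ubiquitin ligase of erythroid cells (1012), and FES, a tyrosine kinase of myeloid cells (543). The motor protein genes were MYL2, the regulatory light chain of cardiac myosin (823), and MYO3A, a myosin of hair cells (514). LRRC34 and ANKRD18A, both little characterized, had sums of 735 and 705.

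Genome maintenance was represented by ETAA1, which activates the kinase ATR at single-stranded DNA coated with RPA, and POLN, a DNA polymerase. ETAA1 had 78, 93, 106 and 102 counts with DMSO and 72, 62, 90 and 84 with olaparib in UWB1.289, and 2 counts in OVCAR3, both in olaparib replicate 2. Genes of the same pathway were read in both lines: ATR had 1769 counts in UWB1.289 and 3516 in OVCAR3, TOPBP1, the other activator of ATR, 3079 and 8007, and RPA1 4902 and 2285. POLN had 89, 67, 86 and 99 counts with DMSO and 95, 88, 93 and 71 with olaparib. Its span overlaps HAUS3 on the same strand, which had 754 counts in UWB1.289 and 451 in OVCAR3, where POLN had 3. The end that they share is the start of both genes, whereas the libraries were read from 3' ends. Reads in the overlap could be assigned to either gene, which was not tested.

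The remaining 11 rows were non-coding RNAs, pseudogenes and clone names. SFTA1P, a long non-coding RNA, had 542, 486, 562 and 602 counts with DMSO and 457, 374, 368 and 416 with olaparib, and none in OVCAR3. LINP1, a non-coding RNA known as a scaffold in nonhomologous end joining, had 250, 277, 347 and 350 counts with DMSO and 212, 262, 280 and 299 with olaparib. The Ku subunit genes XRCC5 and XRCC6 and PRKDC, which act in that pathway, had between 9337 and 25156 counts in each line. ZNF702P, LINC01224, PANTR1, NETO1-DT and DPP10-AS1 had sums of 1434, 1032, 440, 415 and 400. The row MTND3P19 (775, and 0 in OVCAR3) is a nuclear copy of a mitochondrial gene. Reads of that gene may have been assigned to it, which was not tested. The rows RP11-553K8.2, AC005301.9 and RP5-968J1.1 (584, 545 and 513) had no position in the annotation used here.

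By gene family lists, 25 of the 47 fell in at least 1 list and 22 in none. Rows with a name of the kind given to long non-coding and antisense RNAs were 6 of 47 (12.8%), against 2.10% of the 9152 rows with at least 400 counts in UWB1.289. Of these 6, 3 were clone names without a position, and SFTA1P, LINP1 and PANTR1, annotated as long non-coding, have other kinds of names and were not in the list. Secreted growth factors and cytokines numbered 3 (6.38% against 1.05%), of which IL1RL1 was matched by the start of its symbol only and is itself a receptor. C2H2 zinc finger genes, developmental transcription factors, adhesion genes, channels and carriers, innate immune genes, cytoskeleton genes and G protein signaling genes numbered 2 each (4.26%), against 2.66%, 0.863%, 0.372%, 2.08%, 0.623%, 0.972% and 2.31%. Cell surface receptors, matrix and protease genes, imprinted genes and genes often methylated in carcinomas had 1 member each (2.13%), against 1.09%, 0.819%, 0.175% and 0.328%. No member was a cancer/testis antigen, an S100, annexin or serpin gene, or an oxidoreductase, transferase or xenobiotic enzyme of the lists. With 1 to 6 members a list, these shares are descriptions only. The lists are not complete, so a member outside a list, also that of methylated genes, may still be of its kind.

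The 44 genes with a position lay on 18 chromosomes, and 36 of them were protein-coding, 6 long non-coding and 2 pseudogenes. Chromosome 2 held 6 of the 44, and chromosomes 1 and 10 held 5 each, which is 11.4% of the placed members for chromosome 10 against 3.92% of the 8998 placed genes with at least 400 counts in UWB1.289. Chromosome 1 held 11.4% of the members against 10.7% of those genes, a share close to its gene content. In 3 pairs, members lay next to each other on opposite strands, with their starts facing away from each other. The non-coding RNA PANTR1 (chr2:104764932-104853183) began 103 bases from POU3F3 (chr2:104853287-104858574). NETO1-DT (chr18:72868388-72881404) began 241 bases from NETO1 (chr18:72742314-72868146), and SFTA1P (chr10:10784437-10795047) lay 3349 bases from CELF2 (chr10:10798397-11336675). These 6 genes were the only members with another member within 100 kb, 13.6% of the 44. Among all genes with at least 400 counts in UWB1.289, which are far more numerous and therefore closer together, 85.0% had another of their kind at that distance.

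On the short arm of chromosome 10, 4 members lay within the stretch from 6 to 13 Mb: LINP1 (chr10:6709530-6740532), GATA3 (chr10:8045378-8075198), SFTA1P and CELF2. Of the 23 genes in that stretch with at least 50 counts in either line, 6 had 3 counts or fewer in OVCAR3, and 12 had at least 400 there. The 6 low genes formed 2 runs of 3 in the order of these 23 genes: LINP1, LINC00707 and SFMBT2, then GATA3, SFTA1P and CELF2. Between the runs lay ITIH5, KIN, ATP5F1C and TAF3. Of these, ITIH5 was close to the limit, with 135 counts in UWB1.289 and 7 in OVCAR3, so the runs depend on that limit. TAF3, 28.7 kb from GATA3, had 2274 counts in UWB1.289 and 1105 in OVCAR3, and USP6NL, 124 kb beyond CELF2, had 779 and 854. SFMBT2 and LINC00707, between LINP1 and GATA3, followed the members at a lower level, with 78 and 52 counts in UWB1.289 and 0 and 1 in OVCAR3.

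**Figure D2:**
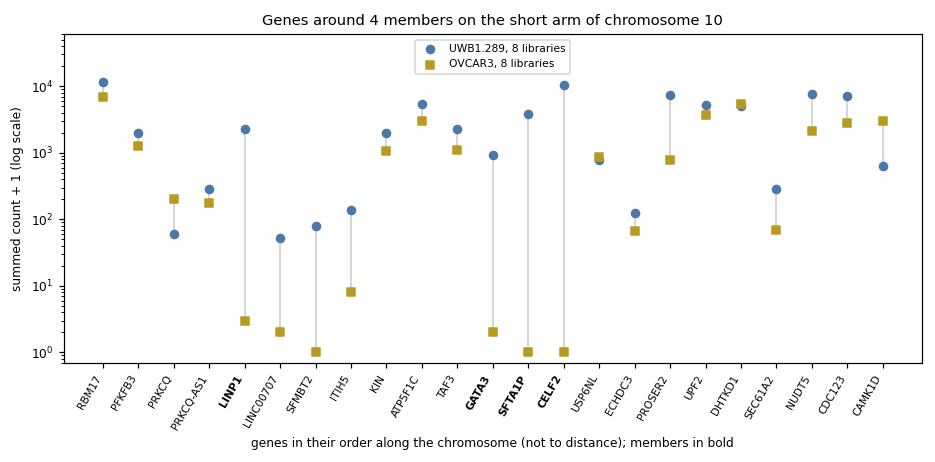
Summed counts plus 1 over the 8 libraries of each line (log vertical axis) for the 23 genes of the stretch from 6 to 13 Mb of chromosome 10 with at least 50 counts in either line, in chromosomal order and not to distance. The 4 members and 2 further genes fall to 3 counts or fewer in OVCAR3, while 12 of the 23 have at least 400 there.

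For every placed member, the nearest protein-coding gene on each side that does not overlap it was read in both lines. At least 1 of these flanking genes had 3 counts or fewer in OVCAR3 for 25 of the 44 members (56.8%), against 27.0% of 8047 genes with at least 400 counts in both lines. Both flanks were that low for 5 members (11.4% against 2.47%): GYPC, NDN, SFTA1P, THBD and TRIM58. Both flanks had at least 400 counts in OVCAR3 for 7 members (15.9% against 31.6%), among them AJAP1, CACNA1A, DPP10-AS1, ETAA1, MTND3P19 and TSPYL5. These shares describe the neighborhoods and were not tested.

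Most of the low flanks were low in UWB1.289 as well. Of the 30 flanks with at most 3 counts in OVCAR3, which were 28 distinct genes, 17 also had at most 3 in UWB1.289, 7 had more than that but fewer than 400, and 6 had at least 400. These last 6 were 4 genes, all members: GATA3 and CELF2, each counted as a flank of 2 members, POU3F3 and NETO1. THBD, on chr20:23045633-23049672, was a gene read by itself: SSTR4, 6.39 kb away, had 1 count in UWB1.289 and 0 in OVCAR3, and CD93, 29.7 kb to the other side, had none in either line. TRIM58 stood between the olfactory receptor genes OR11L1 and OR2W3, both at 0 in both lines.

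NDN showed a mixed neighborhood. MAGEL2, 37.5 kb away in the same imprinted region, had 6 counts in UWB1.289 and 0 in OVCAR3, and NPAP1 had none in either line. MKRN3, a further imprinted gene of the region, had the opposite pattern, with 1 count in UWB1.289 and 305 in OVCAR3. SNRPN was read in both lines, with 11054 and 1653 counts.

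Other members sat among genes read in both lines. FES, on chr15:90883695-90895776, lay 130 bases from FURIN, which had 3987 counts in UWB1.289 and 859 in OVCAR3, and 6.44 kb from MAN2A2 with 1718 and 339. ETAA1, on chr2:67397322-67412089, lay between MEIS1, 823 kb away (415 and 2747), and C1D, 629 kb away (1423 and 806). LINC01224 lay 3.63 kb from the zinc finger gene ZNF91, which had 1670 and 81 counts, and 110 kb from ZNF675 with 1580 and 317.

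IL1RL1, on chr2:102311502-102352037, lies in a cluster of interleukin receptor genes. IL1RL2 had 200 counts in UWB1.289 and 9 in OVCAR3, IL18RAP had 0 and 6, and IL18R1, whose span overlaps IL1RL1 on the same strand, had 19 and 273. The member and the overlapping gene thus had opposite patterns. Further overlaps on the same strand were those of CDH13 with HSBP1 (8099 and 5206 counts) and FGF5 with CFAP299 (0 and 0). On the opposite strand, BHMT2 overlapped DMGDH (47 and 8), LRRC34 overlapped LRRIQ4 (42 and 3), ZNF702P overlapped ERVV-1 (1 and 0) and DPP10-AS1 overlapped DPP10 (178 and 0). The strand setting of the counting was not given in the sources used here, so a gene and an overlapping partner may have shared reads.

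Within 500 kb, 14 of the 44 members had a further row with at most 3 counts in OVCAR3 and at least 50 but fewer than 400 in UWB1.289. These companions were 13 of the 149 such rows. How many other genes had such a row within that distance was not counted, so the number is a description only. APBB1IP (395 and 1) lay 226 kb from MYO3A, FAM201A (203 and 3) overlapped ANKRD18A, and DPP10 (178 and 0) overlapped DPP10-AS1. SHISA2 (118 and 0) lay 18.7 kb from ATP8A2, SERTAD4-AS1 (118 and 0) overlapped SERTAD4, and LINC01159 (51 and 0) lay 6.83 kb from POU3F3.

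A promoter of RefSeq was matched for 33 of the 47 genes. Taking the median over the starts of a gene, members had a median of 20 CpG per 300 bases, against 27 over 6681 genes with at least 400 counts in both lines and 14 over all 27305 genes of the table. At least 15 CpG were found in 22 of 33 members (66.7%), against 89.2% and 49.1%. CpG content therefore lay between that of broadly read genes and that of all genes. It ran from 1 in IL1RL1 and 3 in LINP1 and TNFSF18 to 40 in AJAP1 and 44 in DPP10-AS1. The letters TATAAA, searched on both strands, occurred in 5 of 63 member promoters (7.94%), in 5.604% of the 9814 promoters of genes read in both lines and in 11.5% of all 35116 promoters.

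**Figure D3:**
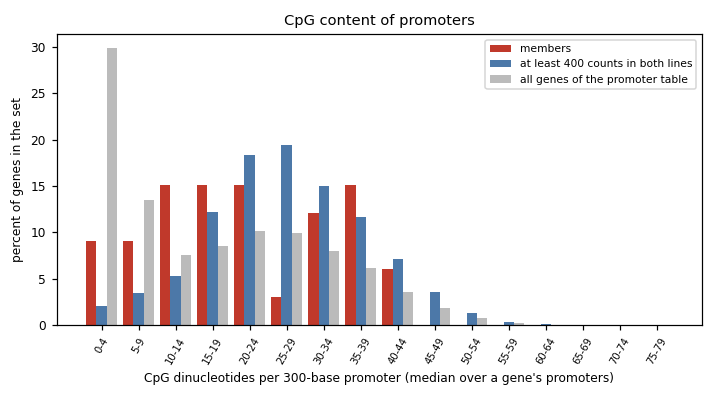
Percent of genes (vertical axis) by CpG dinucleotides per 300-base promoter (horizontal axis, median over a gene's promoters) for the 33 matched members, 6681 genes with at least 400 counts in both lines and all 27305 genes of the table. Members have a median of 20 CpG, between the medians of 27 and 14 of the other sets.

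Olaparib changed few of the genes strongly in UWB1.289. All 47 were tested among 12748 genes with edgeR. Calls needed an adjusted p below 0.1, over 2-fold change and a mean normalized count over 10. By that rule, 2 members were called higher and 0 lower, where 1.93% of all genes tested were called higher and 0.282% lower. By adjusted p below 0.1 alone, 8 members rose and 8 fell, against 7.77% and 6.1% of all genes in these directions. As shares of the 47 members these were 4.26% called higher and 17.0% in each direction by adjusted p alone. DMSO and olaparib libraries did not overlap in normalized counts for 11 members (23.4%), 6 higher and 5 lower, where 14.7% of all genes did not overlap. The members had a minimum of 400 counts, which many genes tested did not have.

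The median log2 fold change of the 47 genes was -0.01, against -0.004 over all genes tested, and 23 were higher and 24 lower with olaparib. Among the 45 genes given singly, changes ran from -0.57 for GYPC to 1.24 for THBD, with 8 higher and 6 lower at an adjusted p below 0.1. Among the 31 members that did not pass, estimates ran from -0.50 to 0.62, with standard errors over the whole set from 0.08 to 0.25 on the log2 scale. Among the 9103 other genes with an average count at least as high as the lowest member, 1.53% were called and 15.96% had an adjusted p below 0.1. These shares take both directions together. The same shares of the 47 members were 4.26% called and 34.0% (16 genes) with an adjusted p below 0.1.

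**Figure D4:**
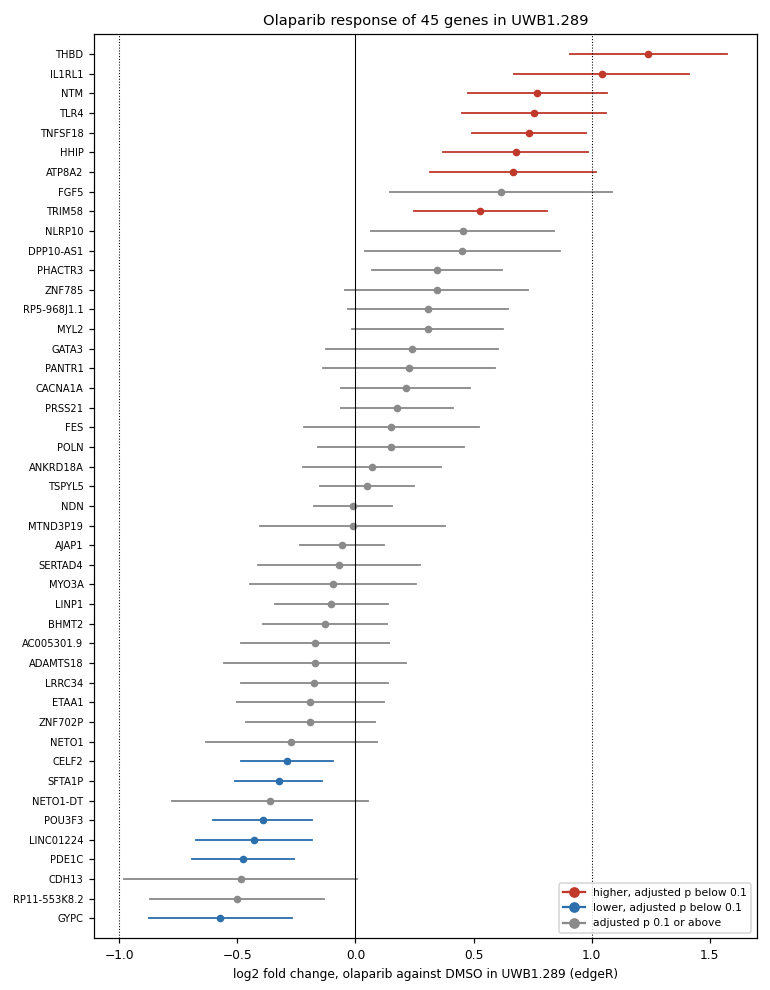
Log2 fold change of olaparib against DMSO in UWB1.289 (horizontal axis, edgeR, n = 4 per arm) with its 95% interval for 45 of the 47 genes (vertical axis), colored by an adjusted p below 0.1. THBD at 1.24 and IL1RL1 at 1.04 lie beyond the dotted line of a 2-fold change, and 8 of the plotted genes are higher and 6 lower at an adjusted p below 0.1.

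THBD had 111, 139, 152 and 174 counts with DMSO and 205, 251, 418 and 389 with olaparib. Every olaparib library stood above every DMSO library, and olaparib replicates 3 and 4 were the highest. In normalized counts this was 139 ± 21.5 against 327 ± 95.7 (mean ± SD, n = 4 each), a 2.36-fold increase with a log2 fold change of 1.24 ± 0.17 (SE) and an adjusted p of 2.34e-05 (edgeR). THBD remained called when any 1 of the 8 libraries was left out, with log2 fold changes from 1.08 to 1.398.

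IL1RL1 had 62, 53, 105 and 71 counts with DMSO and 117, 104, 170 and 167 with olaparib. DMSO replicate 3 stood apart from the other DMSO libraries and reached the lowest olaparib counts, and the groups did not overlap after normalization. The change was 2.06-fold, from 70.5 ± 24.1 to 144 ± 28.3 normalized counts, with a log2 fold change of 1.04 ± 0.19 (SE) and an adjusted p of 0.000779 (edgeR). The estimate lay close to the 2-fold limit: without DMSO replicate 1, 2 or 4, or without olaparib replicate 3 or 4, it was 0.97, 0.95, 0.96, 0.94 or 0.98 and was not called. Without DMSO replicate 3 it was 1.30. Its adjusted p was at most 0.0063 in each of the 8 fits.

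In the receptor group, 5 of the 7 receptor, ligand and secreted regulator genes described here rose and none fell, where 7.77% of all genes tested rose and 6.1% fell. Their median log2 fold change was 0.74, against -0.004 over all genes tested, and the roles were assigned with earlier results known. FGF5 and NLRP10, among these 7, had sums of 400 and 448, near the limit toward which both arms counted. TNFSF18 had 129, 101, 110 and 130 counts with DMSO and 188, 165, 201 and 167 with olaparib, without overlap and with a log2 fold change of 0.74 ± 0.12 (SE, adjusted p 0.000301, edgeR). TLR4 had 65, 90, 74 and 112 counts with DMSO and 118, 147, 127 and 137 with olaparib, again without overlap and with a log2 fold change of 0.76 ± 0.16 (adjusted p 0.00255, edgeR). For both, the smallest olaparib count lay above the largest DMSO count. Beside these genes, the 12 leukocyte markers summed to 8.54 to 12.7 CPM with DMSO and 16.9 to 22.2 CPM with olaparib in UWB1.289, and CD14 rose (log2 fold change 1.28, adjusted p 0.00374, edgeR) while PTPRC, the other marker tested, did not pass. CD68 went from 16 to 40 counts over the 4 libraries of each arm and was too low to be tested. The 7 endothelial markers summed to 5.77 to 11.1 CPM with DMSO and 8.63 to 10.4 CPM with olaparib, and neither PECAM1 nor CDH5, the 2 tested, passed. The 9 fibroblast markers summed to 44.8 to 59.97 CPM with DMSO and 26.1 to 32.9 CPM with olaparib, and COL1A2 fell (log2 fold change -1.03, adjusted p 6.24e-06, edgeR). The 18 serous carcinoma markers summed to 8759 to 9386 CPM with DMSO and 7113 to 8568 CPM with olaparib, and of 16 tested 3 rose and 3 fell. The part of these markers in the changes of the members was not tested.

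HHIP had 111, 158, 122 and 232 counts with DMSO and 179, 225, 250 and 259 with olaparib. The groups overlapped through DMSO replicate 4, and the log2 fold change was 0.68 ± 0.16 (SE, adjusted p 0.00679, edgeR). FGF5 and NLRP10 had log2 fold changes of 0.62 ± 0.24 and 0.45 ± 0.20 and did not pass, with adjusted p of 0.116 and 0.163 (edgeR). With the replicate number as a block, FGF5 passed at an adjusted p of 0.0421, as did RP11-553K8.2 (log2 fold change -0.52, adjusted p 0.0698) and PHACTR3 (0.34, adjusted p 0.0718), so that 19 members passed in place of 16.

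**Figure D5:**
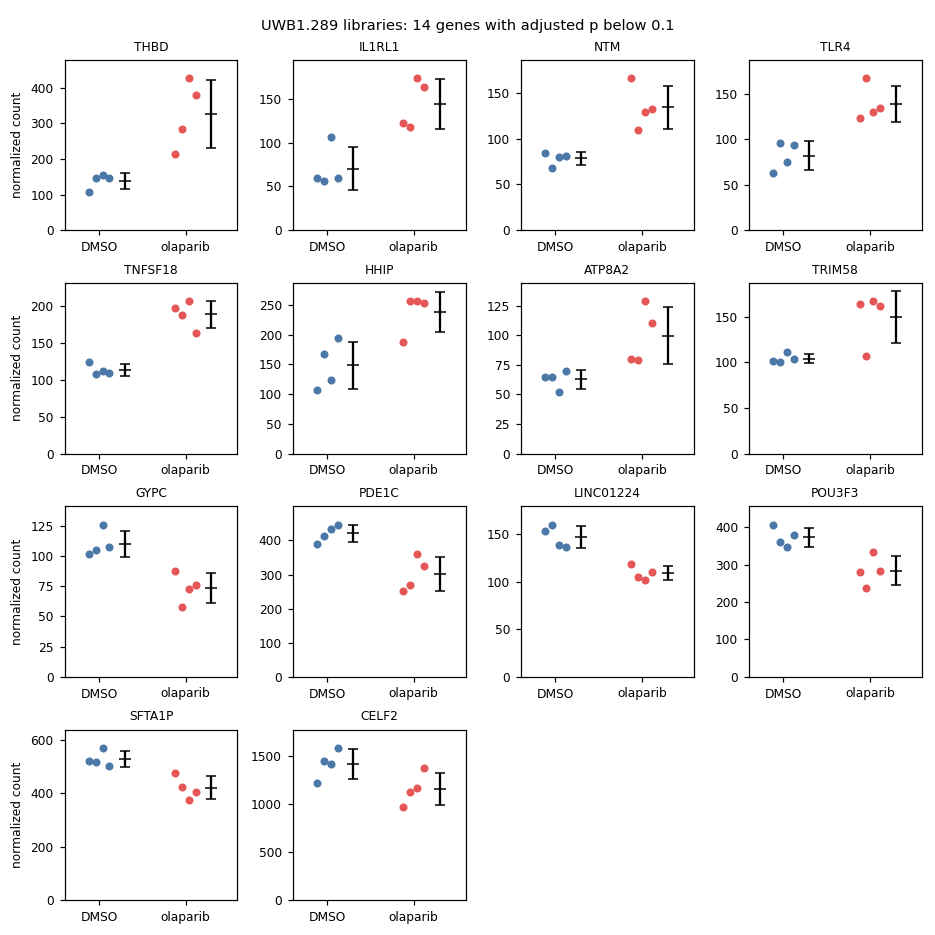
Normalized counts (vertical axes, each from 0) of 14 genes with an adjusted p below 0.1 in the 4 DMSO and 4 olaparib libraries of UWB1.289, with the mean and SD of each arm as bars. THBD has means of 139 and 327, IL1RL1 of 70.5 and 144, and in IL1RL1, HHIP and TRIM58 a single library stands away from the others of its arm.

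In other groups, 3 members rose. NTM had 88, 64, 79 and 97 counts with DMSO and 159, 96, 126 and 135 with olaparib. The log2 fold change was 0.77 ± 0.15 (SE, adjusted p 0.00154, edgeR), and its groups overlapped by a single count before normalization only. ATP8A2 had 67, 61, 51 and 84 counts with DMSO and 77, 70, 126 and 113 with olaparib, with a log2 fold change of 0.67 ± 0.18 (adjusted p 0.0199, edgeR). Its olaparib replicates 3 and 4 were the high ones, and the raw counts overlapped through DMSO replicate 4 while the normalized counts did not. TRIM58 had 105, 94, 110 and 124 counts with DMSO and 157, 94, 163 and 165 with olaparib, and the log2 fold change was 0.53 ± 0.14 (adjusted p 0.0218, edgeR). Olaparib replicate 2 of TRIM58 stayed at the level of the DMSO libraries.

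GYPC fell from 106, 99, 124 and 128 counts to 84, 51, 71 and 78, without overlap, a log2 fold change of -0.57 ± 0.15 (SE, adjusted p 0.0205, edgeR). PDE1C had 404, 389, 428 and 534 counts with DMSO and 242, 238, 353 and 331 with olaparib, without overlap, and a log2 fold change of -0.48 ± 0.11 (adjusted p 0.00678, edgeR). In both genes the fall was below 2-fold.

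LINC01224 fell from 160, 151, 137 and 164 counts to 114, 93, 100 and 113, a log2 fold change of -0.43 ± 0.13 (SE, adjusted p 0.0327, edgeR). POU3F3, SFTA1P and CELF2, whose counts are given above, fell by 0.39 ± 0.11, 0.32 ± 0.09 and 0.29 ± 0.10 on the log2 scale (adjusted p 0.0218, 0.0314 and 0.0713, edgeR). Normalized counts of LINC01224, POU3F3 and SFTA1P did not overlap between the arms, and those of CELF2 did.

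The neighboring pairs were compared by their own values. SFTA1P and CELF2 both fell. POU3F3 fell, while its divergent partner PANTR1 had 48, 52, 47 and 65 counts with DMSO and 64, 57, 60 and 47 with olaparib. Its log2 fold change of 0.23 ± 0.19 did not pass (adjusted p 0.504, edgeR). NETO1 and NETO1-DT had log2 fold changes of -0.27 ± 0.19 and -0.36 ± 0.21 (adjusted p 0.410 and 0.328, edgeR), neither of which passed.

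Among the members with the largest sums, 6 had estimates that did not pass the test. AJAP1 had a log2 fold change of -0.06 ± 0.09, NDN of -0.01 ± 0.08, BHMT2 of -0.13 ± 0.13, LINP1 of -0.10 ± 0.12, TSPYL5 of 0.05 ± 0.10 and CACNA1A of 0.21 ± 0.14 (SE). The 95% intervals reached from -0.23 to 0.12 for AJAP1 and from -0.17 to 0.15 for NDN. ETAA1 and POLN had log2 fold changes of -0.19 ± 0.16 and 0.15 ± 0.16 and did not pass (adjusted p 0.518 and 0.620, edgeR). GATA3 and CDH13 had 0.24 ± 0.19 and -0.49 ± 0.25 and did not pass either, with adjusted p of 0.478 and 0.256.

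By role, to be read beside the 7.77% of all genes that rose and the 6.1% that fell, 2 of 7 nuclear regulators fell and none rose, with a median log2 fold change of -0.01. Of the 11 non-coding and unplaced rows, 2 fell and none rose, with a median of -0.17. The adhesion and enzyme groups of 5 each had 1 member raised and 1 lowered, and of 4 neuronal genes 1 rose and none fell. Motor protein, genome maintenance and little characterized genes had none in either direction. The roles were assigned after the genes and earlier results were known, so these counts are a description.

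Other genes of the same families, outside the members, are to be read beside the 7.77% of all genes tested that rose and the 6.1% that fell. Of 72 other interferon-stimulated and innate immune genes tested, 49 rose (68.1%) and 2 fell (2.78%), with a median log2 fold change of 1.39. Of the members in that list TLR4 rose and NLRP10 did not pass. Of 144 other growth factor and cytokine genes, 43 rose (29.9%) and 12 fell (8.33%). Of 149 other cell surface receptors, 19 rose (12.8%) and 8 fell (5.37%). Of 36 other genes in the list of those often methylated in carcinomas, 10 rose (27.8%) and 2 fell (5.56%), and CDH13 did not pass. Of 880 other rows with names of non-coding and antisense RNAs, 52 rose (5.91%) and 23 fell (2.61%). Of 125 other developmental transcription factors, 15 rose (12%) and 10 fell (8%).

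The matched promoters of the genes that rose were on both sides of the CpG range. Among 7 raised genes with a promoter, IL1RL1 had 1 CpG per 300 bases, TNFSF18 had 3, NTM 6, TLR4 8, TRIM58 20, ATP8A2 30.5 and HHIP 36, a median of 8. The 5 lowered genes with a promoter had a median of 18. With 7 and 5 genes these medians are a description.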

How the data were processed

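RNA of 16 libraries of the cell lines OVCAR3 and UWB1.289, 4 per group, was analyzed from the deposited table of raw counts per gene, the unit being whole-number counts that had not been normalized. The authors prepared QuantSeq 3' libraries, trimmed their reads with BBDuk, used STAR 2.7.9a for alignment to hg38 and featureCounts 2.0.0 for counting on GENCODE release 38, versions as in the submitters' processing notes. Pairs of reads were sequenced and processed as single ends. All 59428 rows name a gene. Members and lists were chosen with earlier results of these data known, and roles and partner genes after the members were known.

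Olaparib was compared with DMSO over the 8 UWB1.289 libraries with edgeR 4.0.16 under R 4.3.3. Rows were filtered with filterByExpr, scaled by TMM and tested with the quasi-likelihood F test, and p-values were adjusted by Benjamini-Hochberg over all 12748 genes tested. Calls needed an adjusted p below 0.1, over 2-fold change and a mean normalized count over 10. The SE was derived from the log2 fold change and its F statistic. Normalized counts were scaled to the mean effective library size. Rises and falls refer to an adjusted p below 0.1. The design text of the series states 4 repeats, without saying whether these were separate cultures or whether a replicate number marks the same repeat in both arms, so p-values measure only the spread between these samples, which may be technical. The code for the fits was tested on simulated data.

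Positions were taken from GENCODE release 44 by symbol (44 of 47 members), promoters from RefSeq (33 of 47). Intervals at 95% and floors of 3 counts over 8 libraries cover counting error only. Total counts of 5599571 to 7730228 limit the precision of members near 50 counts per library.

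Genes named were the 12 members with the largest UWB1.289 sums, those called for olaparib and the 5 with the smallest adjusted p in each direction, members within 100 kb of another, members of the methylation, cancer/testis, developmental, interferon-stimulated and imprinted lists, and the members and rows next to the limits. Other members, neighboring and partner genes were named after their values were seen. Single values of 2 members are not reported here.

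Replicate numbers were checked as pairs: libraries of the same number deviated together in all 4 pairs (correlations 0.135, 0.156, 0.248 and 0.217 across 9159 genes after removing the group means), so the number was also used as a block, a pairing taken from the data and not from the labels. Alternatives were DESeq2 1.42.0, its size factors, no filter, an average count above 50, no fold threshold, an adjusted p below 0.05, a fit to all 16 libraries, each library left out in turn, and other limits for the choice of members.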

Additional observations from a re-analysis of the deposited data

Results flagged for a closer look

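Among 90 groups of 4 UWB1.289 libraries (45 genes in 2 arms), 6 held a library that stood apart from the other 3, its gap to the nearest of them, divided by the range of the group, being above Dixon's 95% critical value. Chance alone gives about 1 in 20 such groups. All values are normalized counts.

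In olaparib replicate 1, LINP1 was low at 221.5 against 287 to 298 in the other olaparib libraries, and HHIP was low at 187 against 253 to 256. In olaparib replicate 2, TRIM58 was low at 106.8 against 161 to 167. In olaparib replicate 4, TSPYL5 was high at 303 against 256 to 261, and POLN was low at 69.4 against 95.2 to 99.99. In DMSO replicate 3, IL1RL1 was high at 106.6 against 56.3 to 59.6 in the other DMSO libraries, and its log2 fold change without that library was 1.30 in place of 1.04.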

How the results depend on the processing

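The count of 2 members called for olaparib was the same with DESeq2, its size factors, no filter, an average count above 50, an adjusted p below 0.05, a fit to all 16 libraries and the replicate number as a block. Without a fold threshold it was 16, and over the 8 fits that left out a library it ran from 1 to 2, IL1RL1 being the gene lost. The number with an adjusted p below 0.1 ran from 12 to 19 over all these settings, and from 12 to 18 over the 8 fits that left out a library. With the replicate block it was 19, and the block changed no call at 2-fold.

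The number of members was 26 at a sum of 0 in OVCAR3, 66 at a sum of at most 8, 94 at 200 counts and 24 at 800 counts in UWB1.289. From the DMSO libraries alone it was 61, 42 of them members. Both flanking genes were at 0 in OVCAR3 for 3 members in place of 5. The count of neighboring members was 6 at 50 kb and at 500 kb. Without AJAP1 the share of counts was 0.118% with DMSO and 0.120% with olaparib.

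Log2 fold changes were recomputed for 20 members under 16 settings, 320 values in all. Of these, 3 changed sign, all near 0: AJAP1 was 0.011 without DMSO replicate 3 and 0.0014 without olaparib replicate 1, and TSPYL5 was -0.014 without olaparib replicate 4. Leaving out each library, AJAP1 ran from -0.11 to 0.011 and TSPYL5 from -0.014 to 0.072. The cause was not tested. A further 5 lost the call, all for IL1RL1. Members with about 50 counts per library had standard errors up to 0.25 on the log2 scale, which limited the detection of changes under 2-fold in them. Some such changes still passed, as FGF5 did with the replicate block at a log2 fold change of 0.62.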
